A study of Mus musculus with 53 samples.

Results

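The comparison described here is of 3 obese against 3 non-obese Nnat+/-p females, by RNA sequencing of the paraventricular nucleus (PVN) of the hypothalamus. These 6 samples were chosen by genotype and labelled body weight and are 6 of the 53 samples of the series. The mice were C57BL/6 females on chow, and fresh frozen brains were taken at 13 to 14 weeks of age. Every mouse in the comparison carried a deleted Nnat allele inherited from its father, so the compared groups share the genotype and differ in weight. The obese mice weighed 32.7, 33.35 and 31.5 g (Samples 6, 8 and 12) and the non-obese mice weighed 23.63, 20.4 and 23.9 g (Samples 9, 10 and 11). Obesity was defined by the study as over 30 g in Nnat+/-p females and its absence as under 25 g. Nnat+/+ females of 24.1 to 24.6 g (Samples 1 to 4) were measured in the same pool and are given as a reference level. Samples 1 and 2 carry the same labelled weight, as do Samples 7 and 8, and the labels do not say that these are separate mice. The PVN was cut by laser from stained sections, so a library holds every cell type of the cut area, and fewer cells of a type cannot be told apart from less RNA per cell. Each library is labelled with 1 weight, and the spread between the 3 libraries of a group can include both the mice and the dissection. Obese Sample 7 and Nnat+/+ Sample 5 were left out, with totals of 812815 and 2302 counts.

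Neuronatin, the product of Nnat, is a small membrane protein of the endoplasmic reticulum, and the gene is imprinted and read from the paternal copy, so a paternal deletion removes nearly all of its RNA. The PVN gathers signals of energy state from the arcuate nucleus and the brainstem. It holds magnocellular neurons that make vasopressin and oxytocin, parvocellular neurons that make corticotropin-releasing and thyrotropin-releasing hormone, and Sim1 neurons with the melanocortin 4 receptor, which restrain feeding. Immediate early genes are transcribed within minutes of a stimulus to a neuron, without new protein synthesis, and are widely read as a trace of recent neuronal activity.

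Levels are given as CPM, the read counts scaled to library size with edgeR's TMM factors, and differences as log2 of obese over non-obese. The 10 libraries used held 6219365 to 30228973 counts, and the obese and non-obese totals overlapped (two-sided exact permutation test, p = 0.8, where 0.1 is the smallest p that 3 against 3 allow). Nnat itself was measured at 1.59, 1.58 and 3.46 CPM in the obese and 3.15, 17.4 and 2.5 CPM in the non-obese mice, against 454 to 532 CPM in Nnat+/+ mice, so the level was low in all 6 libraries labelled with the deletion. The PVN markers Avp, Oxt, Crh, Trh, Sim1 and Otp had at least 380 counts in every library used. Xist was at 83.5 to 183 CPM and the Y-linked Ddx3y had at most 0.124 CPM, so all 10 libraries were of female tissue as labelled. Library 10, of the lightest mouse, stood apart. The median correlation of its log2 CPM with the other libraries was 0.639, against 0.851 to 0.884 in 7 of the others, and it detected 12898 genes, where the other 9 libraries detected 15135 to 19707. In 605 of the 15485 tested genes (3.91%) it lay over 3 times above every other library. Nnat+/+ libraries 2 and 3 had the next lowest median correlations, 0.695 and 0.743, with 430 and 241 such genes, and the remaining 7 libraries had 3 to 43. The same 3 libraries held the most nuclear long noncoding RNA. The summed CPM of 18 such genes was 27174, 23527 and 24342 in libraries 10, 2 and 3 and 3428 to 6583 in the others. Library 10 also had 39.1% of its counts on ribosomal RNA genes, against 15.2% to 26.6% elsewhere. Results are therefore given with all 10 libraries and without library 10, and the part of RNA quality in them was not tested.

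**Figure D1:**
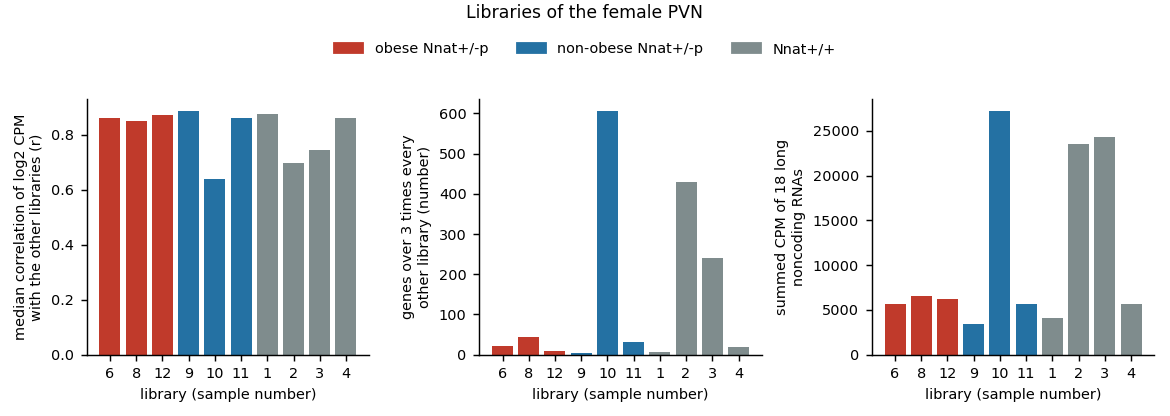
Bars give, for each of the 10 libraries, the median Pearson correlation of log2 CPM with the other libraries (left), the number of tested genes over 3 times above every other library (middle) and the summed CPM of 18 long noncoding RNAs (right), with colour marking the group. Non-obese library 10 has the lowest correlation, at 0.639, and the most genes above all others, at 605, followed by Nnat+/+ libraries 2 and 3.

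Penk, which encodes the enkephalin precursor, had the smallest unadjusted p of the genes taken for description with the higher level in PVN of obese mice, and Dgkg, a diacylglycerol kinase gene, of those with the lower level, and neither was called by edgeR. Of 15485 genes tested by edgeR's quasi-likelihood test, 0 were called at an adjusted p under 0.25, the threshold of the study (0%), and the smallest Benjamini-Hochberg adjusted p was 1. At an unadjusted p under 0.05 there were 102 genes with the higher level in obese mice (0.659%) and 372 with the lower level (2.4%). In 155 of the 372 genes with a lower level, library 10 lay over 3 times above every other library. Without library 10, 61 genes had the higher level in obese mice (0.352% of 17338 tested) and 104 the lower level (0.6%), and 0 were called. With Nnat+/+ libraries 2 and 3 left out as well, 323 were higher (1.96% of 16489) and 353 lower (2.14%), with 0 called and a smallest adjusted p of 0.425 (edgeR). Of the 102 higher genes 27, and of the 372 lower genes 43, kept the direction and an unadjusted p under 0.05 in all 3 of these fits. The fits share the obese libraries and the non-obese libraries other than library 10, so keeping a small p in all of them is not replication. Chance alone gives an unadjusted p under 0.05 at a rate of 0.05 over both directions together, above the share found in each fit. limma voom with library quality weights also called 0 genes. The study applied its threshold to the Wald test of DESeq2 and not to edgeR. Here DESeq2 called 71 genes, of which 60 were lower in obese mice. Of the 71, 30 had library 10 over 3 times above every other library and 26 were at 0 in every obese library. In 795 genes (5.13%) all 3 obese libraries lay above all 3 non-obese ones, and in 544 (3.51%) all lay below. The 12 genes of smallest unadjusted p in each direction were taken for description, among protein-coding genes whose groups did not overlap and whose direction held with each of the 6 libraries left out. None of these 24 was called by edgeR, so their values are given as descriptions. Groups without overlap and a kept direction were conditions of the choice and are not results about these genes. At the same threshold DESeq2 called 4 of the 12 higher genes (Dcn, Egfl6, Prox2 and Magix) and 7 of the 12 lower ones, among them Ceacam1, Ankdd1a, Mmp25, Flt3l, Trim12c and Dgkg, and gave no adjusted p for 2 of the lower ones, Nrk and Ap4e1. Penk, Rgs10, Zfp644, Eml6 and Junb were called by neither.

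**Figure D2:**
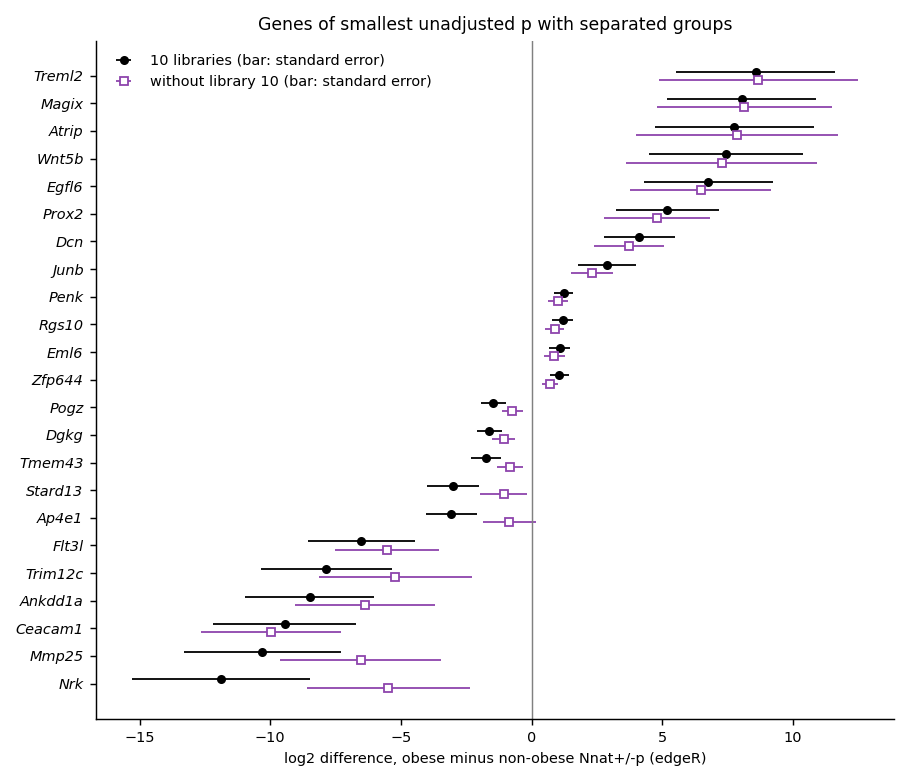
Points give the log2 difference of obese minus non-obese Nnat+/-p females for the leading genes whose values are described here, with all 10 libraries (filled circles) and without library 10 (open squares), and bars give the standard error of edgeR's fit. Penk, Rgs10, Eml6 and Zfp644 have the shortest bars among the 12 higher genes, and among the lower genes Ap4e1, Stard13, Mmp25 and Nrk lie nearer to 0 without library 10. The 6 genes at 0 in all libraries of a group have values at the edges that depend on the prior count of the fit.

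Proenkephalin led the genes with the higher level in obese mice. Penk (ENSMUSG00000045573, chromosome 4 from 4133531 to 4138819 of GRCm38, minus strand) encodes the precursor of the enkephalin opioid peptides and is made by parvocellular PVN neurons among many others. It was measured at 180.3, 204 and 172 CPM in obese and 63.6, 54.6 and 120.3 CPM in non-obese mice, without the overlap that the choice of genes excluded. The means were 185 ± 16.2 CPM (SD, n = 3) and 79.5 ± 35.6 CPM (SD, n = 3), and Nnat+/+ mice ranged from 53.9 to 142 CPM, below every obese value. The log2 difference was 1.22 (SE 0.37, unadjusted p = 0.00472), and 1.00 (unadjusted p = 0.0142) without library 10. With each of the 10 libraries left out in turn it lay between 1.00 and 1.64.

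A regulator of G protein signalling, Rgs10 (ENSMUSG00000030844, chromosome 7 from 128373621 to 128418758), which speeds the switching off of Gi-coupled receptors and is abundant in microglia and some neurons, showed the same order. Its values were 98.6, 143 and 138 CPM in obese and 69.5, 29.5 and 66.7 CPM in non-obese mice, a log2 difference of 1.19 (SE 0.40, unadjusted p = 0.00911) and of 0.88 (unadjusted p = 0.027) without library 10. The Nnat+/+ values of Rgs10 ran from 48.1 to 102 CPM, a range that held obese library 6. Of 22 microglia genes tested, 0 had an unadjusted p under 0.05, and their summed level was 278 to 345 CPM in obese and 285 to 392 CPM in non-obese mice. Zfp644, a zinc finger protein gene, was at 155, 189 and 127 CPM in obese and 80.0, 34.4 and 110.4 CPM in non-obese mice, with a log2 difference of 1.06 (SE 0.38, unadjusted p = 0.012). Eml6, of a family of microtubule-binding proteins, was at 60.8, 47.9 and 61.6 CPM in obese and 35.7, 19.3 and 25.6 CPM in non-obese mice, with a log2 difference of 1.07 (SE 0.41, unadjusted p = 0.0181). The Nnat+/+ values of Eml6 ran from 45.7 to 92.5 CPM, beside those of the obese mice. In all 12 higher genes library 10 had the lowest value of the non-obese group or shared it. Without it the log2 difference of Zfp644 was 0.71 (unadjusted p = 0.0351) and that of Eml6 was 0.87 (unadjusted p = 0.0384).

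**Figure D3:**
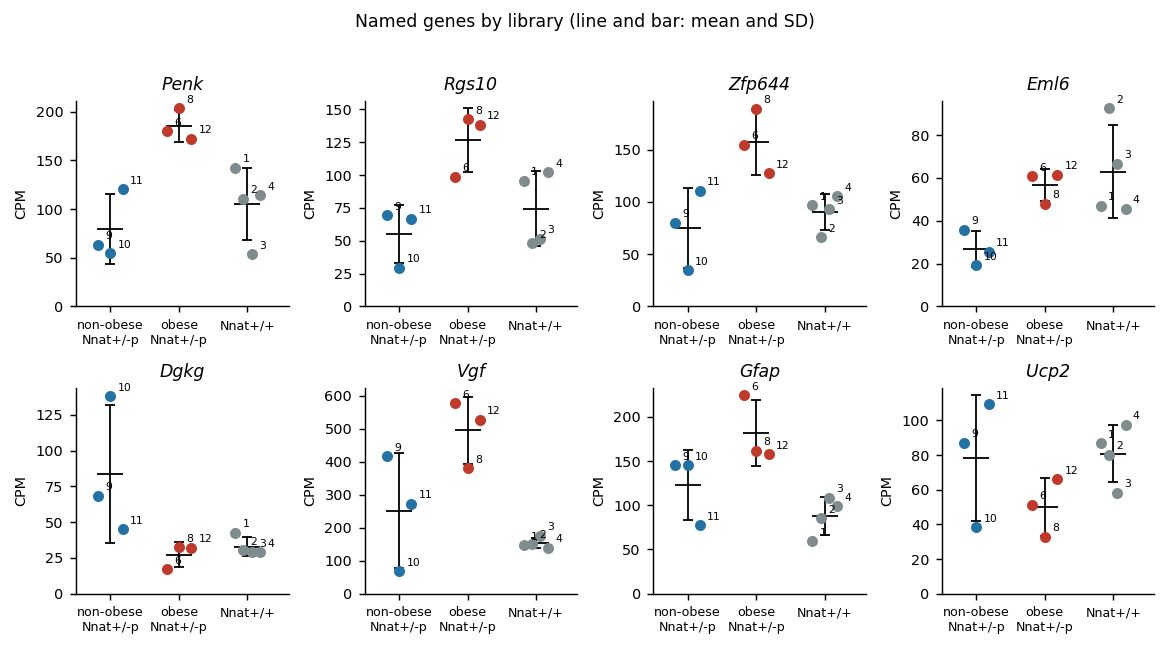
Points give the CPM of 8 genes in every library, labelled by sample number, in non-obese Nnat+/-p, obese Nnat+/-p and Nnat+/+ females, and the line and bar give the mean and SD of each group. Penk, Rgs10, Zfp644 and Eml6 are higher in all 3 obese than in all 3 non-obese mice and Dgkg is lower, while Vgf and Ucp2 overlap, in each case through a library of the non-obese group. Separation was a condition for choosing Penk, Rgs10, Zfp644, Eml6 and Dgkg.

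Dcn (ENSMUSG00000019929, chromosome 10 from 97479609 to 97518143), which encodes the matrix proteoglycan decorin of fibroblasts in the meninges and around vessels, was at 6.61, 17.8 and 8.88 CPM in obese and 1.22, 0.189 and 0.405 CPM in non-obese mice, a log2 difference of 4.12 (SE 1.37, unadjusted p = 0.00809). Without library 10 it was 3.73 (unadjusted p = 0.0107), and the Nnat+/+ values, 3.13 to 11.5 CPM, overlapped the obese ones. Among 23 tested genes of vessels and pericytes, 0 had an unadjusted p under 0.05, and without overlap of the groups 1 lay above and 4 below, beside 5.13% and 3.51% of all genes. Their summed level was 1249, 1225 and 1213 CPM in obese and 1564, 1144 and 1221 CPM in non-obese mice. DESeq2 gave Dcn an adjusted p = 0.00137. Junb is described with the immediate early genes, and the remaining 6 of the 12 had few reads. Magix, Treml2 and Atrip had no count in any non-obese library, and their obese medians were at least 9.42-fold, 9.64-fold and 8.55-fold higher than a floor of 3 counts per library. Treml2, a receptor of the TREM family of myeloid cells, was at 1.06, 5.85 and 1.95 CPM in obese mice and at most 0.248 CPM in Nnat+/+ mice. Magix and Atrip, the latter a partner of the checkpoint kinase ATR, were at 0.278 to 3.88 and 0.278 to 3 CPM in obese mice. Egfl6, Prox2 and Wnt5b, the last a secreted Wnt ligand, were at 0.65 to 12.3, 1.5 to 9.46 and 0.222 to 9.93 CPM in obese mice, with at most 0.283 CPM in any non-obese library. Within the obese group these 6 genes varied by more than 3 times between libraries. Of the 12 higher genes 10 kept an unadjusted p under 0.05 without library 10, and the exceptions were Atrip (unadjusted p = 0.0554) and Wnt5b (unadjusted p = 0.0602).

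In the fit of all 10 libraries, immediate early genes had the highest median log2 difference of the 30 gene lists examined, and Junb was among the 12 higher genes. Junb and Nr4a1, of 22 tested genes of the list, had an unadjusted p under 0.05, both higher in obese mice, where the share over all genes was 0.659%, and 0 were lower. The list's median log2 difference was 0.60, beside 0.06 over all tested genes, and 18 of the 22 were above 0, beside 53.1% of all tested genes. Junb (ENSMUSG00000052837, chromosome 8 from 84974484 to 84978718, minus strand) encodes a subunit of the AP-1 transcription factor. It was measured at 20.7, 34.1 and 72 CPM in obese and 13.1, 0 and 3.71 CPM in non-obese mice, and no obese value lay within the non-obese range. Nnat+/+ mice had 4.09 to 21 CPM, a range that held obese library 6. The log2 difference of Junb was 2.88 (SE 1.11, unadjusted p = 0.019, edgeR), and 2.30 (unadjusted p = 0.00852) without library 10. Nr4a1 (ENSMUSG00000023034, chromosome 15 from 101254269 to 101274795, plus strand), an orphan nuclear receptor induced by calcium and cyclic AMP, was at 32.2, 54.6 and 94.6 CPM in obese and 13.1, 18.1 and 1.82 CPM in non-obese mice, again without overlap. Its log2 difference was 2.46 (SE 1.05, unadjusted p = 0.0318), and 2.98 (unadjusted p = 0.0116) without library 10.

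Egr1 and Fos, the members most used as activity markers, were named after their values were seen. Egr1, a zinc finger transcription factor, was at 157, 146 and 251 CPM in obese and 105, 94.1 and 17.8 CPM in non-obese mice, without overlap, and had a log2 difference of 1.35 (SE 0.69, unadjusted p = 0.0665). Fos, the partner of the Jun proteins in AP-1, was at 32.5, 14.1 and 192 CPM in obese and 20.9, 94.3 and 8.71 CPM in non-obese mice, which overlapped. Its log2 difference was 0.96 (SE 1.06, unadjusted p = 0.382), with 2.41 (unadjusted p = 0.0322) without library 10 and -0.81 without obese library 12, so both its sign and its size depended on single libraries. Obese library 12 had the highest value of all 10 libraries for Junb, Nr4a1, Egr1, Fos and Btg2. Btg2, an antiproliferative gene of the early response, was at 21.4, 22 and 92.8 CPM in obese and 23.3, 9.82 and 0.405 CPM in non-obese mice. Nr4a3, of the same receptor family as Nr4a1, was at 35.1, 41.1 and 23 CPM in obese and 23.4, 0 and 3.24 CPM in non-obese mice. Both overlapped between obese libraries and non-obese library 9, and both were named after their values were seen. Jun, Jund and Homer1 overlapped more widely. Jun was at 91.1 to 143 CPM in obese and 88.6 to 173 CPM in non-obese mice, and Jund was at 79.7 to 108 and 50.1 to 139.9 CPM. Homer1, whose short form is induced by activity, was at 11.2 to 35.5 and 5.86 to 64 CPM. Without library 10, 4 of 23 tested members were higher at an unadjusted p under 0.05 (Junb, Nr4a1, Egr1 and Fos), where the share over all genes was 0.352%, and the median log2 difference was 0.52. Without libraries 2, 3 and 10, 7 were higher and 1, Homer1, was lower, beside 1.96% and 2.14% of all genes. The summed level of the 23 genes was 843, 664 and 1406 CPM in obese mice and 901, 508 and 376 CPM in non-obese mice, and 315 to 508 CPM in Nnat+/+ mice. Non-obese library 9 lay between the obese libraries on this sum, with p = 0.3 by exact permutation of the 6 libraries (two-sided).

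**Figure D4:**
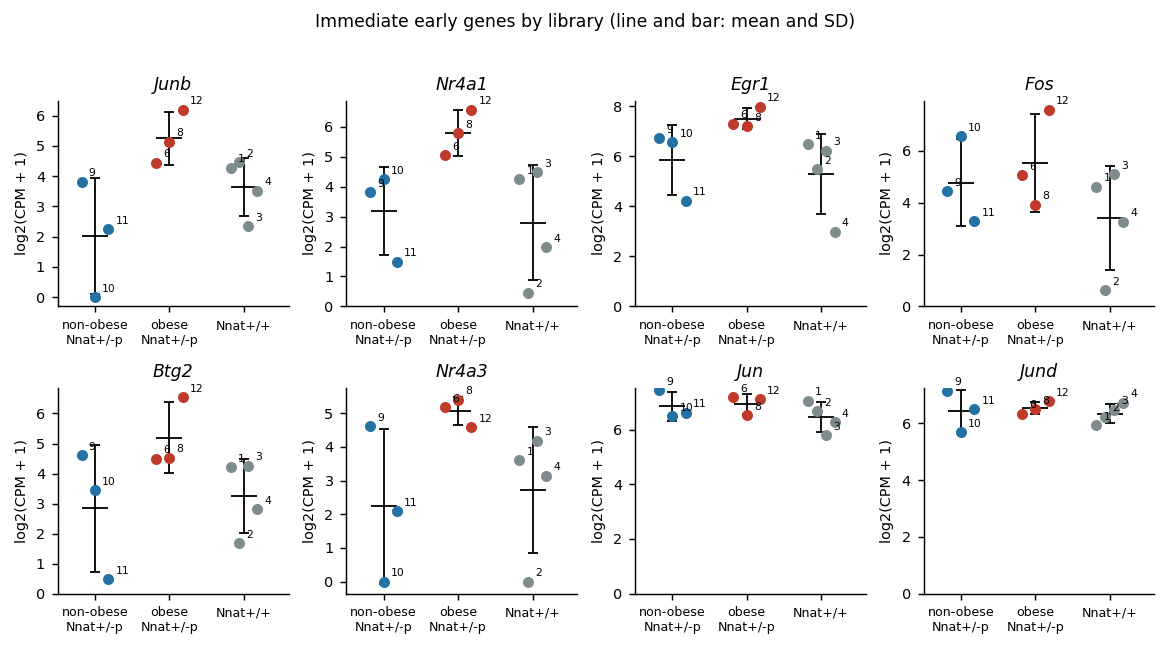
Points give log2(CPM + 1) of 8 immediate early genes in every library, labelled by sample number, and the line and bar give the mean and SD of each group. Junb, Nr4a1 and Egr1 are higher in all 3 obese than in all 3 non-obese libraries, and Fos, Jun and Jund overlap between these groups.

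Cyclic AMP response elements (CREs) are short motifs, bound by CREB, through which many immediate early genes answer to calcium and cyclic AMP. The 250 bases upstream of the first RefSeq start of each gene were searched on both strands for the CRE core TGACG, for the full palindrome TGACGTCA, which holds the core, and for the CArG box of serum response factor. Promoters were found in the RefSeq table (GRCm38.p6) for 19 of the 23 listed genes, of which 12 (63.2%) held the core and 2 (10.5%) the palindrome, Dusp1 and Btg2. Of all 32851 promoter windows of that length in the table, 17.8% held the core, 1.55% the palindrome and 1.47% the CArG box, which was found in 0 of the 19. Egr1, Egr3, Arc and Ier2 had no window and were not searched. A motif further upstream than 250 bases would not be seen. The windows of Nr4a1, with 4 cores, of Junb, with 1, and of Fos, with 2, are shown because Nr4a1 and Junb had the smallest p of the list and Fos is its best known member. Cores are in capitals, each window reads 5′ to 3′ along the gene's own strand, and it ends at the base before the first start that RefSeq lists. For Nr4a1 that start lies inside the gene as annotated above, whose first base belongs to an earlier start, and for Junb it lies just upstream of the annotated gene. They lie at chr15:101266596-101266845 (plus strand), chr8:84978749-84978998 (minus strand) and chr12:85473640-85473889 (plus strand). A match describes these letters and does not show that a factor bound there.
Nr4a1: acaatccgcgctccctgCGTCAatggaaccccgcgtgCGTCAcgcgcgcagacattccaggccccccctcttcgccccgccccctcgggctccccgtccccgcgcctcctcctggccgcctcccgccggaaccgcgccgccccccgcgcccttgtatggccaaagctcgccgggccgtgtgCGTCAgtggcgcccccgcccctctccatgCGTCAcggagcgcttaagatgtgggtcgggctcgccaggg
Junb: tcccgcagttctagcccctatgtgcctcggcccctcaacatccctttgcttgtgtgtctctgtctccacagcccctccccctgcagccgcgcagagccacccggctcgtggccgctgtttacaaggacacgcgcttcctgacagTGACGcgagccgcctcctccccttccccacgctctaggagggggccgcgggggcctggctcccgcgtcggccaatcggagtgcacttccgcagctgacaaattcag
Fos: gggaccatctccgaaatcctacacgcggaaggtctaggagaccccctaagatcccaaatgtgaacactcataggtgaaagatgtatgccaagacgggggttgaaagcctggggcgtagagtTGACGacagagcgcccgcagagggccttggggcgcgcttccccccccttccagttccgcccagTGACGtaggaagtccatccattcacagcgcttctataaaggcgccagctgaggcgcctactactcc

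Among genes with the lower level in obese mice, Dgkg had the smallest unadjusted p of the 12 taken for description. Dgkg (ENSMUSG00000022861, chromosome 16 from 22468461 to 22657221, minus strand) encodes diacylglycerol kinase gamma, which ends diacylglycerol signalling after calcium entry in neurons. It was at 17.2, 32.5 and 32.1 CPM in obese and 68.4, 138 and 45.2 CPM in non-obese mice, and the Nnat+/+ values, 28.9 to 42.6 CPM, overlapped the obese ones. Its log2 difference was -1.62 (SE 0.47, unadjusted p = 0.00328), and -1.07 (unadjusted p = 0.023) without library 10, whose value was the highest. DESeq2 gave Dgkg an adjusted p = 0.151. In 9 of the 12 lower genes library 10 held the highest value of all 10 libraries. Without it, 6 of the 12 kept an unadjusted p under 0.05, among them Dgkg, Ankdd1a, Ceacam1, Mmp25 and Flt3l.

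Ceacam1 (ENSMUSG00000074272, chromosome 7 from 25461707 to 25477603), a cell adhesion receptor that also promotes insulin clearance in liver, had no count in the 3 obese libraries and 3.91, 1.89 and 10.3 CPM in the non-obese ones. The non-obese median was at least 14.8-fold higher than the floor of 3 counts in an obese library, and the unadjusted p was 0.00384 with library 10 and 0.00158 without it (edgeR). DESeq2 gave Ceacam1 an adjusted p = 0.0071. Nnat+/+ mice ran from 0 to 8.55 CPM, with 1 of the 4 at 0. Flt3l, the ligand of the FLT3 receptor of blood progenitors, was at 0.176, 0 and 0 CPM in obese and 0.992, 11.3 and 4.66 CPM in non-obese mice. Ankdd1a, an ankyrin repeat and death domain gene, was at 0, 0 and 0.0444 CPM in obese and 2.32, 24.9 and 1.82 CPM in non-obese mice. Mmp25, a membrane-type matrix metalloproteinase, had no count in obese mice and 0.255, 28.3 and 1.08 CPM in non-obese ones. Ceacam1, Flt3l, Ankdd1a and Mmp25 had few reads in every group, so a level of 0 in an obese library allows up to 3 counts, which is 0.265 CPM in the obese library of median depth and covers counting error only.

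The other 6 lower genes had an unadjusted p over 0.05 without library 10. Pogz, a chromatin protein gene, was at 40.8, 27.1 and 48.2 CPM in obese and 58.5, 194 and 69.7 CPM in non-obese mice, a log2 difference of -1.47 (SE 0.47, unadjusted p = 0.00693) that was -0.74 (unadjusted p = 0.0782) without library 10. Tmem43, of the inner nuclear membrane, was at 35.6, 11.1 and 19.6 and 38.9, 146 and 38.9 CPM, with a log2 difference of -1.75 (SE 0.58, unadjusted p = 0.00795) and of -0.83 (unadjusted p = 0.12) without library 10. Stard13, a RhoGAP gene, and Ap4e1, of the adaptor complex AP-4, were at 86.5 and 113 CPM in library 10 and at most 9.04 and 10.1 CPM in libraries 9 and 11. Their log2 differences were -3.01 (SE 0.99, unadjusted p = 0.00783) and -3.07 (SE 0.99, unadjusted p = 0.00662), and -1.07 (unadjusted p = 0.246) and -0.85 (unadjusted p = 0.418) without it. Trim12c was at 0, 0 and 0.133 CPM in obese and 2.41, 38.4 and 1.76 CPM in non-obese mice. Nrk, a kinase gene, had no count in obese mice and 0.0283, 86.5 and 0.608 CPM in non-obese ones.

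Of the hormones that define the PVN, vasopressin, oxytocin, thyrotropin-releasing hormone and corticotropin-releasing hormone each overlapped between the groups. Of 19 genes listed as magnocellular and parvocellular hormones and peptides, 16 were tested. Penk alone had an unadjusted p under 0.05, where 0.659% of all tested genes were higher at that threshold. The median log2 difference of the 16 was 0.35 with all libraries and -0.06 without library 10. Avp (vasopressin) was at 917, 954 and 1481 CPM in obese and 2359.8, 857 and 676 CPM in non-obese mice. Oxt (oxytocin) was at 810.3, 1116 and 1239 and 895, 419.6 and 1117 CPM, and Trh at 307, 303 and 326 and 435, 129 and 276 CPM. Crh, the start of the stress axis, was at 122, 116 and 105 CPM in obese and 199, 229 and 111 CPM in non-obese mice, which overlapped through non-obese library 11, with a log2 difference of -0.65 (SE 0.34, unadjusted p = 0.0712) and of -0.46 (unadjusted p = 0.196) without library 10. Sst was at 74.5 to 111 and 58.4 to 101 CPM. Vip and Nmu had no count in any of the 6 libraries. Of the 10 transcription factors of the PVN lineage, 0 had an unadjusted p under 0.05. Sim1, needed for PVN neurons to form, was at 166, 160.2 and 191 CPM in obese and 202, 249 and 233 CPM in non-obese mice, all 3 obese values being below the non-obese ones (unadjusted p = 0.198, edgeR), and Otp was at 223 to 260.2 and 135 to 292 CPM.

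Vgf was the gene of the granin and prohormone list with an unadjusted p under 0.05, of 14 tested, where 0.659% of all tested genes were higher. It encodes a neuropeptide precursor of dense core vesicles that responds to neurotrophins and feeding state. Its values were 578, 381 and 527 CPM in obese and 416, 67.8 and 272 CPM in non-obese mice, and 139.9 to 176 CPM in Nnat+/+ mice, so obese and non-obese overlapped through libraries 8 and 9, and library 10 alone of the 6 lay below the Nnat+/+ range. The log2 difference was 0.97 (SE 0.43, unadjusted p = 0.0395), and 0.51 (unadjusted p = 0.0807) without library 10. Pcsk1, the proprotein convertase of neurons, was at 129.8 to 206 and 35.5 to 195 CPM. The 14 granin and prohormone genes summed to 6825, 7027 and 6751 CPM in obese and 6731, 4533 and 6411 CPM in non-obese mice. All 3 obese sums lay above the non-obese ones, with library 10 far below the rest (two-sided exact permutation test, p = 0.1, the smallest possible). The summed levels of 30 genes of folding, stress and calcium in the endoplasmic reticulum and of 47 cytosolic ribosomal protein genes gave the same p of 0.1 by that exact test, with 0 of 29 and 0 of 42 tested genes at an unadjusted p under 0.05. Of the 30 lists examined, only the granin list and these had that p. Chance alone gives it at a rate of 0.1 per list, so it does not set these lists apart.

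Of 31 tested receptors of appetite and metabolism, 0 had an unadjusted p under 0.05. Mc4r, the melanocortin receptor of PVN neurons, was at 6.53, 11.6 and 11.4 CPM in obese and 9.24, 6.8 and 1.22 CPM in non-obese mice. Glp1r, the receptor of glucagon-like peptide 1, was at 25, 18.2 and 41 and 38.6, 9.26 and 15 CPM, and Npy1r at 14.8 to 41.1 and 19 to 33.8 CPM. Lepr was at 0.71 to 4.64 and 0 to 3.74 CPM, near the floor. Ntsr1, a neurotensin receptor, was at 0.529, 0.557 and 2.84 CPM in obese and 3.51, 39.1 and 6.96 CPM in non-obese mice, without overlap, with a log2 difference of -3.63 (SE 1.80, unadjusted p = 0.0609) and of -1.99 (unadjusted p = 0.365) without library 10. Among 25 genes of insulin and leptin signalling, 0 had an unadjusted p under 0.05, and 16 were above 0 with library 10 and 6 without it.

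Ucp2, the mitochondrial uncoupling protein of neurons and microglia, was at 51.4, 32.9 and 66.2 CPM in obese and 87.1, 38.4 and 109.5 CPM in non-obese mice. The non-obese libraries 9 and 11 lay above all 3 obese ones and library 10 lay within the obese range. The log2 difference was -0.64 (SE 0.41, unadjusted p = 0.133) with library 10 and -0.98 (unadjusted p = 0.0108) without it, and the Nnat+/+ values were 58.3 to 97.5 CPM. Glul, the glutamine synthetase of astrocytes, was at 492, 567 and 483 CPM in obese and 382, 326 and 385 CPM in non-obese mice, without overlap, a log2 difference of 0.50 (SE 0.23, unadjusted p = 0.0474) and of 0.41 (unadjusted p = 0.11) without library 10. Glul alone of 19 tested genes of homeostatic astrocytes had an unadjusted p under 0.05, where 0.659% of all tested genes were higher at that threshold. Gfap, the intermediate filament of astrocytes, was at 225, 162 and 158 CPM in obese and 145, 146 and 77.6 CPM in non-obese mice and 59.6 to 109 CPM in Nnat+/+ mice. Obese and non-obese values did not overlap, and the log2 difference was 0.56 (SE 0.33, unadjusted p = 0.104), with 0.69 (unadjusted p = 0.0564) without library 10. Of 13 tested genes of reactive astrocytes, 0 had an unadjusted p under 0.05 and the median was -0.12.

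Markers of the nuclei around the PVN were found in both groups. The summed level of 13 genes of the arcuate and ventromedial nuclei was 13.4, 45 and 17.4 CPM in obese and 37.8, 48.9 and 42.1 CPM in non-obese mice, with Agrp, the defining peptide of arcuate hunger neurons, at 0 in all 3 obese libraries and in 2 of the 3 non-obese ones. Of the 9 tested, 0 had an unadjusted p under 0.05 and the median log2 difference was -0.96. For 15 genes of the lateral hypothalamus and suprachiasmatic nucleus it was 144, 190.0 and 118 and 99.2, 134 and 236 CPM, of which Zfhx3 alone gave 67.6 to 131 and 52.7 to 148 CPM, and 0 of 12 tested genes had an unadjusted p under 0.05, with a median of -0.89. The part of these levels in the results was not tested. Among 20 tested genes of forebrain and thalamus neurons, Drd2 was higher at an unadjusted p under 0.05, beside 0.659% of all tested genes. Its values were 6.44, 0 and 2.18 CPM in obese and 0.113, 0 and 0 CPM in non-obese mice, which overlapped at 0. The summed levels of the oligodendrocyte, ependymal and choroid plexus lists overlapped between the groups. Of the 27 tested genes of the oligodendrocyte lineage Ppp1r14a was lower at an unadjusted p under 0.05, beside 2.4% of all tested genes. This came through 61.6 CPM in library 10, and its log2 difference was -0.03 (unadjusted p = 0.984, edgeR) without that library. In the lists of uncoupling genes, ependymal cells, choroid plexus, steroid receptors, clock genes, lipid synthesis, inflammatory signalling, transmitter receptors, potassium channels, mitochondrial mRNAs, long noncoding RNAs, midbrain patterning and sex-linked genes, 0 tested genes had an unadjusted p under 0.05. En2, a hindbrain patterning gene, was at 11.3, 24.7 and 14 CPM in obese and 19.2, 7.37 and 1.49 CPM in non-obese mice, which overlapped. Its value was 0 in each of the 4 Nnat+/+ female libraries. In chow-fed males En2 was at 6.19, 0.433 and 0 CPM in Nnat+/+ libraries 13, 14 and 15. The male Nnat+/-p libraries had 4.08 to 28.6 CPM, so in males the genotypes overlapped. Counts are per gene, so they do not show which part of En2 the reads matched, and their source was not tested.

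**Figure D5:**
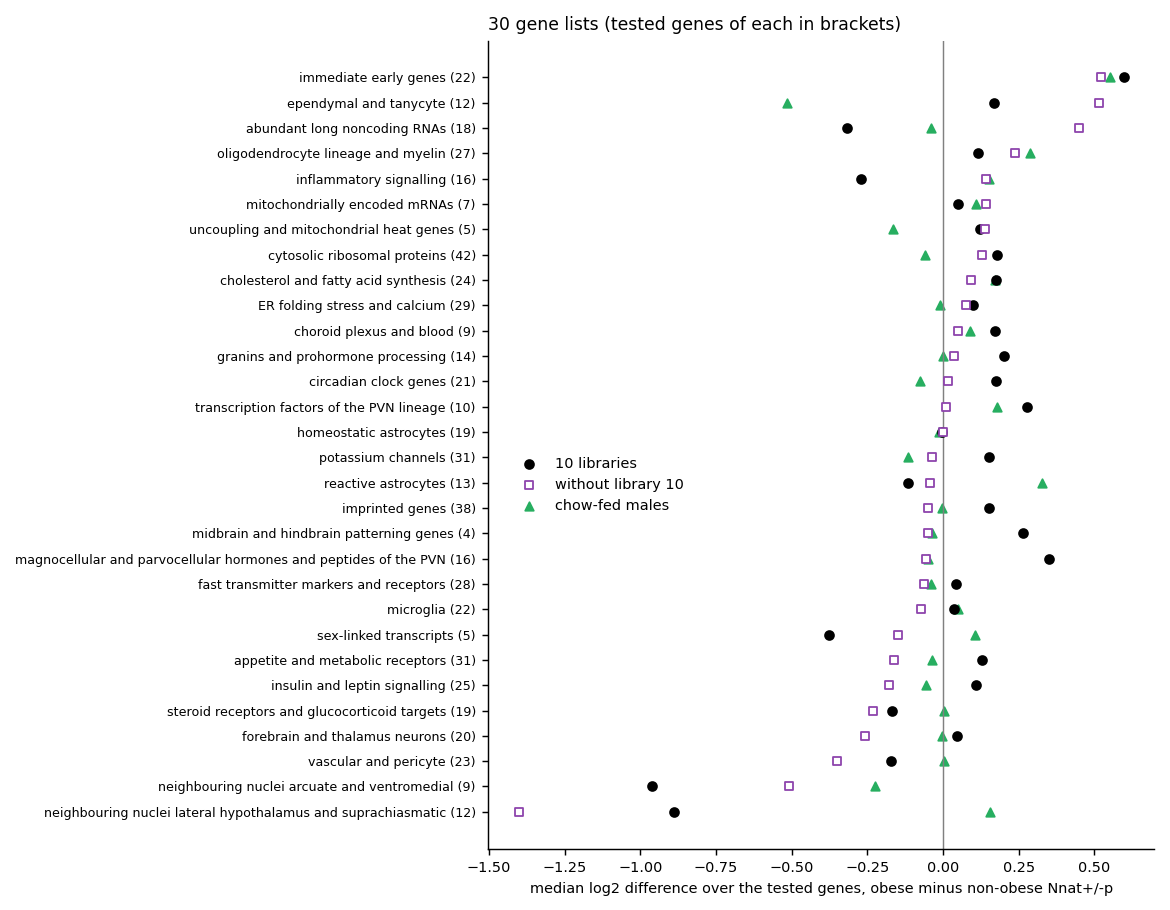
Points give the median log2 difference of obese minus non-obese Nnat+/-p mice over the tested genes of each of 30 lists, in females with all 10 libraries (circles), in females without library 10 (open squares) and in chow-fed males (triangles). Immediate early genes lie at 0.60, 0.52 and 0.55 in these 3 settings, while the long noncoding RNAs pass from -0.32 to 0.45 when library 10 is left out.

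Of 38 tested imprinted genes, 2 had an unadjusted p under 0.05, both lower in obese mice, where 2.4% of all genes were. They were Nnat itself, with a log2 difference of -1.66 (SE 0.58, unadjusted p = 0.0107), and Mest, a paternally expressed gene also studied as a marker of fat expansion, at 87, 75.8 and 68.3 CPM in obese and 144, 197 and 78 CPM in non-obese mice. Nnat was highest in library 10, and without it the log2 difference was -0.33 (unadjusted p = 0.346). The log2 difference of Mest was -0.86 (SE 0.35, unadjusted p = 0.0265), and -0.54 (unadjusted p = 0.118) without library 10. Blcap, in whose intron Nnat lies, was at 63, 81.1 and 93.1 CPM in obese and 107, 98.8 and 122 CPM in non-obese mice, without overlap, and had a log2 difference of -0.46 (SE 0.34, unadjusted p = 0.185). Peg3 was at 2698 to 2860.0 and 1614 to 2922 CPM. The imprinted genes summed to 13151 to 13488 CPM in obese and 13122 to 13701 CPM in non-obese mice, which overlapped.

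The same contrast was available in chow-fed male PVN, in 4 obese and 3 non-obese Nnat+/-p mice sequenced in another pool, so sex and pool cannot be told apart. Both sexes were fitted in 1 edgeR model of 20 libraries. The difference between the female and the male effect was called for 0 of 18708 genes, with a smallest adjusted p of 0.586, while DESeq2 called 146. Male Nnat+/+ library 15 had 0.184 CPM of Avp and 0.552 CPM of Sim1. The other male chow libraries had 203 to 474 CPM of Avp and 38.8 to 191 CPM of Sim1. Library 15 shares in the estimate of the spread. The SE of the female effect of Sim1 was 0.30 in the female fit and 0.64 in the model of both sexes. With only the 4 Nnat+/-p groups, and so without library 15, 0 of 16037 genes were called (edgeR). In the model of 20 libraries, at an unadjusted p under 0.05, the female effect lay above the male one in 236 genes (1.26%) and below it in 483 (2.58%). In males alone 0.347% of genes were higher and 0.54% lower in obese mice. Of the 102 higher genes of the females, 90 were tested in this model and 40 had the same sign in males. Of the 372 lower ones, 362 were tested and 218 had the same sign. The same sign was found in 52.3% of all 15220 genes tested in both, and 0 of the higher and 2 of the lower genes had an unadjusted p under 0.05 in males too. Penk in males was at 151, 121, 66.1 and 93.9 CPM in the 4 obese and 95.1, 58.1 and 53.4 CPM in the 3 non-obese mice, a log2 difference of 0.67 (unadjusted p = 0.0603). Rgs10 was at 105, 67, 50.2 and 41.8 CPM in obese and 43.5, 31.2 and 42.6 CPM in non-obese males, with 0.78 (unadjusted p = 0.0503). For both genes the sign matched the females, the groups overlapped in males, and the female minus male difference was 0.55 (unadjusted p = 0.272) for Penk and 0.42 (unadjusted p = 0.451) for Rgs10. Of the immediate early genes, 17 of 23 tested in males were above 0, beside 49.9% of all genes. Their median was 0.55, beside -0.0004 over all genes, and 0 had an unadjusted p under 0.05 (edgeR). Nr4a1 was at 54.3, 8.16, 12.8 and 19.1 CPM in obese and 13.9, 9.27 and 7.31 CPM in non-obese males. These groups overlapped, and the highest value was that of a single obese library. Gfap was at 124, 191, 99.4 and 122 CPM in obese and 64, 69.1 and 32.3 CPM in non-obese males, without overlap, and its log2 difference was 1.31 (unadjusted p = 0.000452) in males. Dgkg was at 40.6, 12.8, 19.9 and 35 CPM in obese and 22, 31.6 and 28.6 CPM in non-obese males, with 0.00 (unadjusted p = 0.995) in males and a female minus male difference of -1.60 (unadjusted p = 0.0256). Eml6 had the opposite sign in males, -0.69 (unadjusted p = 0.071), and a female minus male difference of 1.77 (unadjusted p = 0.00256). Ceacam1, at 7.04, 0.371, 0.674 and 5.69 CPM in obese males, had a female minus male difference with an unadjusted p of 0.000703 (edgeR). Of the 24 genes taken for description, 5 of the 12 higher and 4 of the 12 lower had the same sign in males, and none of their female minus male differences passed an adjusted p under 0.25 (edgeR). The unadjusted p of that difference was under 0.05 in 9 of the 12 higher and 10 of the 12 lower genes. These genes, Eml6, Dgkg and Ceacam1 among them, were chosen on the female values that also enter the difference. Small unadjusted p-values follow from that choice and do not show an effect of sex.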

How the data were processed

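RNA was taken from laser-cut PVN sections, and libraries were made by the authors from 500 pg of total RNA with a stranded pico-input total RNA kit and read as single 50-base reads. The authors aligned reads with STAR 2.5.0a to GRCm38, according to the submitters' processing notes, and deposited a table of raw read counts per Ensembl gene for each pool. The counting annotation and strand setting are not given in the sources used here. Symbols and coordinates came from a GRCm38 annotation. Total counts ran from 6219365 to 30228973, and libraries under 25% of the median total (Samples 5 and 7) were left out.

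Counts were tested in R 4.3.3 with edgeR 4.0.16 (TMM, filterByExpr minimum count 10, quasi-likelihood test) over the 3 chow female groups, with the contrast obese minus non-obese and Benjamini-Hochberg adjustment over all tested genes. The call threshold was an adjusted p under 0.25. P-values measure the spread between these libraries. Alternatives used DESeq2 1.42.0, limma 3.58.1 voom, RLE factors, no filter, a robust prior, the compared groups alone, all labelled libraries, body weight as a continuous term, and each library left out. The fits without libraries 2, 3 and 10, and the gene lists without library 10, were chosen after seeing the data. The scripts were tested on simulated data. Exact permutation tests compared single values per library. Plots were made with matplotlib 3.10.9.

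Genes named were Nnat, Blcap, the 12 leading genes in each direction by the rule in the report, up to 4 members of each of 30 gene lists with an unadjusted p under 0.05 (or 2 of highest level where none had one), and genes of the PVN or named by the study. The libraries compared, the gene lists and the rule were chosen with earlier results of these data known. The values of 1 of the lower genes are not reported here. Floors are 3 counts in a library and cover counting error only.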

Additional observations from a re-analysis of the deposited data

Results flagged for a closer look

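In 6 of 76 groups of 4 libraries, the highest or lowest library stood apart from the other 3 by Dixon's test at its 95% critical value, which chance alone passes in about 5% of groups. In Nnat+/+ females the highest library had 42.63 CPM of Dgkg, where the other 3 had 28.86 to 30.4, and 407.8 CPM of Glul, where the others had 334 to 341.7. The highest Nnat+/+ library had 14 CPM of Ppp1r14a, against 3.501 to 4.656, and 0.2477 CPM of Treml2, against 0. In obese males on chow the lowest library had 1.708 CPM of Mmp25, against 5.75 to 6.423, and the highest had 1.993 CPM of Prox2, against 0 to 0.1855.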

How the results depend on the processing

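The count of 0 called genes held with RLE factors, a robust prior, voom, the compared groups alone, body weight as a continuous term, an adjusted p under 0.05, libraries 2, 3 and 10 left out, and each library left out (0 to 0). It was 71 by DESeq2 (4 of the 12 higher and 7 of the 12 lower genes taken for description among them), 229 when all genes with more than 1 count were kept (161 of them with library 10 over 3 times above every other library) and 622 with all labelled libraries, which adds Samples 5 and 7 of few counts. The cause was not tested.

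The 474 genes at an unadjusted p under 0.05 became 943 by DESeq2, 1131 without the filter, 253 in the compared groups alone, 1316 with all labelled libraries and 909 with weight as a continuous term. With each library left out they ranged from 165 (without library 10) to 1041 (without library 9), with 245, 293, 312 and 793 without libraries 8, 6, 12 and 11. The female minus male difference was called for 146 genes by DESeq2 and for 2, Dsg1a and Gbx2, without libraries 2, 3 and 10. With each library left out it was called for 0 to 2, the 2 being Hlcs and Gm30332 without library 9 or 11. Hlcs was at 1255 CPM in library 10 and 12.8 to 25.9 CPM in the other 5 Nnat+/-p libraries. Their values were known before these 4 were named.

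Of 38 genes followed through the alternatives (737 values), 36 kept their direction. The 38 include all the genes taken for description, which were chosen because their direction held with each compared library left out. For these genes the kept direction in those fits follows from the choice, so the count of 36 does not measure how robust the directions are. Fos became -0.81 without obese library 12 and 2.41 without library 10, its range over the libraries left out, and Ucp2 became 1.13 with all labelled libraries. No paired analysis was possible because the labels used here name no litter or cage that would link libraries of the compared groups. Each group held 3 libraries, and the median SE over all tested genes was 0.94 on the log2 scale.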
